A study of Mus musculus with 10 samples.

Results

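The 9 genes described here carry the growth hormone signal in liver or lie at its output. They are the receptor Ghr, the kinase Jak2, the transcription factors Stat5a and Stat5b, the feedback inhibitors Socs2 and Cish, the secreted products Igf1 and Igfals, and the repressor Bcl6. They were chosen by gene symbol from 22180 genes that have a probe set of a single symbol, and the brightest probe set stood for each gene. Bcl6 is among them because it was lower after the fast in Pml knockout liver in these same samples, so that value is given as a description. All 9 passed the filter on dim probe sets and are part of the 13942 genes tested.

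Total RNA came from the livers of female BALB/cByJ mice aged 3 months, with 10 samples on Mouse Gene 2.1 ST arrays (Affymetrix). The groups were Pml KO mice with food removed for 6 h (3 arrays, here fasted KO), Pml wt mice with food removed for 6 h (3 arrays, fasted WT), Pml KO mice fed ad libitum (2 arrays, fed KO) and Pml wt mice fed ad libitum (2 arrays, fed WT). PML is the protein that organises PML nuclear bodies. The labels do not say how the Pml KO allele was made, at what time of day livers were taken, or whether each array is a separate animal. The p-values therefore cover the spread among these arrays, which may be technical. The questions were what the fast changed in each genotype and what loss of Pml changed in each feeding state. A further question was whether the fast acted differently in the 2 genotypes (the interaction, the change in KO minus the change in WT). Collection times are unknown, so a difference in time of day between groups cannot be told apart from the fast or from loss of Pml.

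Growth hormone binds GHR on hepatocytes, which activates the associated kinase JAK2 and, through it, STAT5A and STAT5B. The STAT5 proteins then enter the nucleus and bind pairs of TTC and GAA letters set 3 bases apart, switching on Socs2 and Cish, whose products damp the signal, and Igf1 and Igfals, whose products circulate together as a hormone and its stabilising subunit. BCL6 is a zinc finger repressor whose preferred DNA sequence resembles the STAT site, and in mouse liver Bcl6 is itself repressed by growth hormone. The pattern of growth hormone release differs between the sexes in mice, and many liver genes with a male or female bias follow it.

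The arrays were read as log2 intensity, with array medians of 5.44 to 5.57. Pml lay at 6.05 to 6.91 on the 5 KO arrays and at 7.50 to 8.37 on the 5 WT arrays, without overlap (difference -1.61; exact permutation test, two-sided, p = 0.00794, the smallest that 5 against 5 arrays can give). Hepatocyte markers had none of 10 called in any comparison, and their summed intensity was 47277 to 50892 in fasted KO, 49423 to 50464 in fasted WT, 47651 to 49521 in fed KO and 47967 to 48616 in fed WT. Single arrays stood apart. Fasted KO replicates 1 and 2 differed in clock genes from fasted KO replicate 3 and from fasted WT. Arntl was at 4.60 and 4.53 on those 2 arrays, at 8.87 in fasted KO replicate 3, at 9.04 to 9.29 in fasted WT, at 5.72 and 6.02 in fed KO and at 7.50 and 7.10 in fed WT. Fed WT replicate 1 had the lowest values of the female-biased genes Sult2a1, at 3.88, and Sult2a2, at 4.22, where no other array was under 7.84 and 9.18. Results that rest on these arrays are given with and without them, for the lists of other genes mostly as counts of calls. Without fed WT replicate 1 that group holds a single array, so a lost call does not show that the difference rests on it.

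The regulatory letters the pathway is known for were looked up in RefSeq promoter windows (assembly GRCm38.p6), each holding 250 bases before and 50 bases from an annotated start. The motif searched was TTCNNNGAA, which reads the same on both strands. There were 14 windows for 8 of the 9 genes, and 5 windows of 3 genes (Bcl6, Cish and Igfals) held 8 matches. Over all RefSeq windows, 8.30% held at least 1 match, 0.457% at least 2 and 0.0335% at least 3, and 9.55% of genes had a match in some window. These 3 genes were the ones with a match, and their sequences are shown. Cish, with 2 matches side by side, passed no test between the groups, and Ghr, lower after the fast in WT, had no match. Letters in capitals mark the motif, and positions count from the first transcribed base as +1. The match of Bcl6 start 1 begins at -118, those of Bcl6 start 2 at -168, -122 and -88, those of Cish at +1 and +12, and those of Igfals at -236 for start 1 and -58 for start 2. A match describes the letters of a window and is not a measured binding site, and sequence outside the windows was not searched. Socs2 was not among the windows.
Bcl6, upstream of start 1 (chr16:23988853-23989102, minus strand): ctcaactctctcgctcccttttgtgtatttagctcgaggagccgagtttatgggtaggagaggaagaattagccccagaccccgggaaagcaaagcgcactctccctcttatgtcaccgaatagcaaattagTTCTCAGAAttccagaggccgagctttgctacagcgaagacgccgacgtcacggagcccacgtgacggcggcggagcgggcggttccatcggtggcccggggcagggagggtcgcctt
Bcl6, before start 2, farthest match (chr16:23981433-23981461, minus strand): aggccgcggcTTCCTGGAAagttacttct
Bcl6, before start 2, middle match (chr16:23981387-23981415, minus strand): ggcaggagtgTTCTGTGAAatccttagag
Bcl6, before start 2, nearest match (chr16:23981353-23981381, minus strand): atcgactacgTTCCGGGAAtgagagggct
Cish, at the start, both matches (chr9:107296654-107296683, plus strand): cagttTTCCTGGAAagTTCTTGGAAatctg
Igfals, before start 1 (chr17:24877598-24877626, plus strand): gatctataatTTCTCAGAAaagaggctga
Igfals, before start 2 (chr17:24878163-24878191, plus strand): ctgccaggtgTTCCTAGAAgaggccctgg

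**Figure D1:**
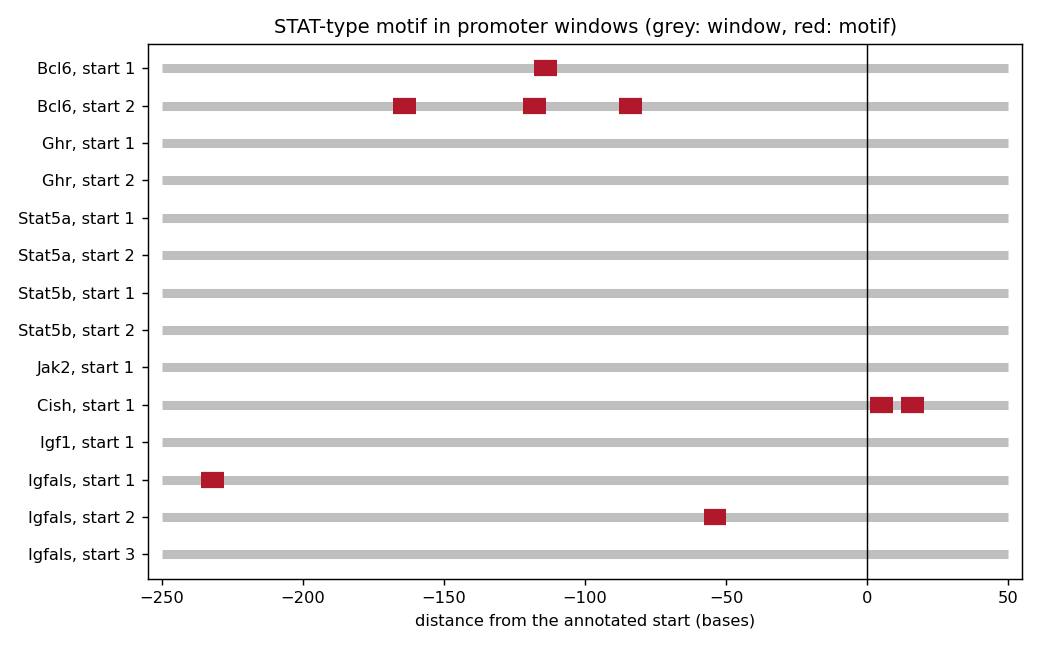
Positions of TTCNNNGAA in the promoter windows of 8 of the 9 genes; the horizontal axis is the distance in bases from the annotated start, each line is a window and each mark is a match. The second start of Bcl6 holds 3 matches, the start of Cish 2, and the windows of Ghr, Stat5a, Stat5b, Jak2 and Igf1 hold none.

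Igfals, Ghr and Bcl6 were lower after the fast in WT, and Igfals was higher in fasted KO than in fasted WT. The kinase, the STAT5 genes, the inhibitors and Igf1 passed no test. Called means that limma, fitted over all 13942 genes, gave an adjusted p under 0.05. The fast in KO is the comparison that placed Bcl6 among the 9 genes, so its being the 1 call there (lower) is a description and is not read against the 1.68% of all genes called or the 0.868% called lower. None of the other 8 genes was called in that comparison. The fast in WT gave 3 of 9 (Bcl6, Ghr and Igfals, all lower), where 21.4% of all genes were called and 13.2% were called lower. Of the genes called there, 1843 of 2990 were lower, and with each array centred on its median gene 1296 of 3058 were, while Bcl6, Ghr and Igfals were called lower on both scales. Between fasted KO and fasted WT, 2 of 9 were called (Igfals higher, Bcl6 lower), where 11.1% were. That comparison uses the fasted KO arrays that placed Bcl6 among the 9 genes, so the call of Bcl6 there is also a description. In fed liver, limma called 0 of 9 between KO and WT, where 0.0861% of all genes were called (12 genes, and 1203 at an unadjusted p under 0.05). The interaction was called for 1 of 9 (Igfals), where 2.11% of all genes were. With 9 genes these shares are coarse. The 9 genes were chosen with earlier results of these data known, so none of these counts is a test against the shares.

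The median log2 difference over the 9 genes was -0.22 for the fast in KO, against 0.01 over all genes tested. For the fast in WT the medians were -0.20 for the 9 genes and -0.02 for all genes. In fasted KO against fasted WT they were 0.06 and 0.01, and in fed KO against fed WT -0.14 and -0.02. The arrays of the 2 feeding states did not overlap for 7 of 9 genes in KO (36.8% of all genes) and for 5 of 9 in WT (52.7%). Bcl6 is 1 of the 7, and the fast in KO is what placed it among the 9 genes. That count and the median of -0.22 are therefore descriptions and are not read against all genes. The arrays of the 2 genotypes did not overlap for 4 of 9 genes when fasted (33.0%) and for 5 of 9 when fed (39.9%). Bcl6 is also 1 of the 4, in a comparison that uses the same fasted KO arrays. The fast in KO and the fast in WT share no array, while each KO against WT comparison and each fast comparison share 1 group.

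**Figure D2:**
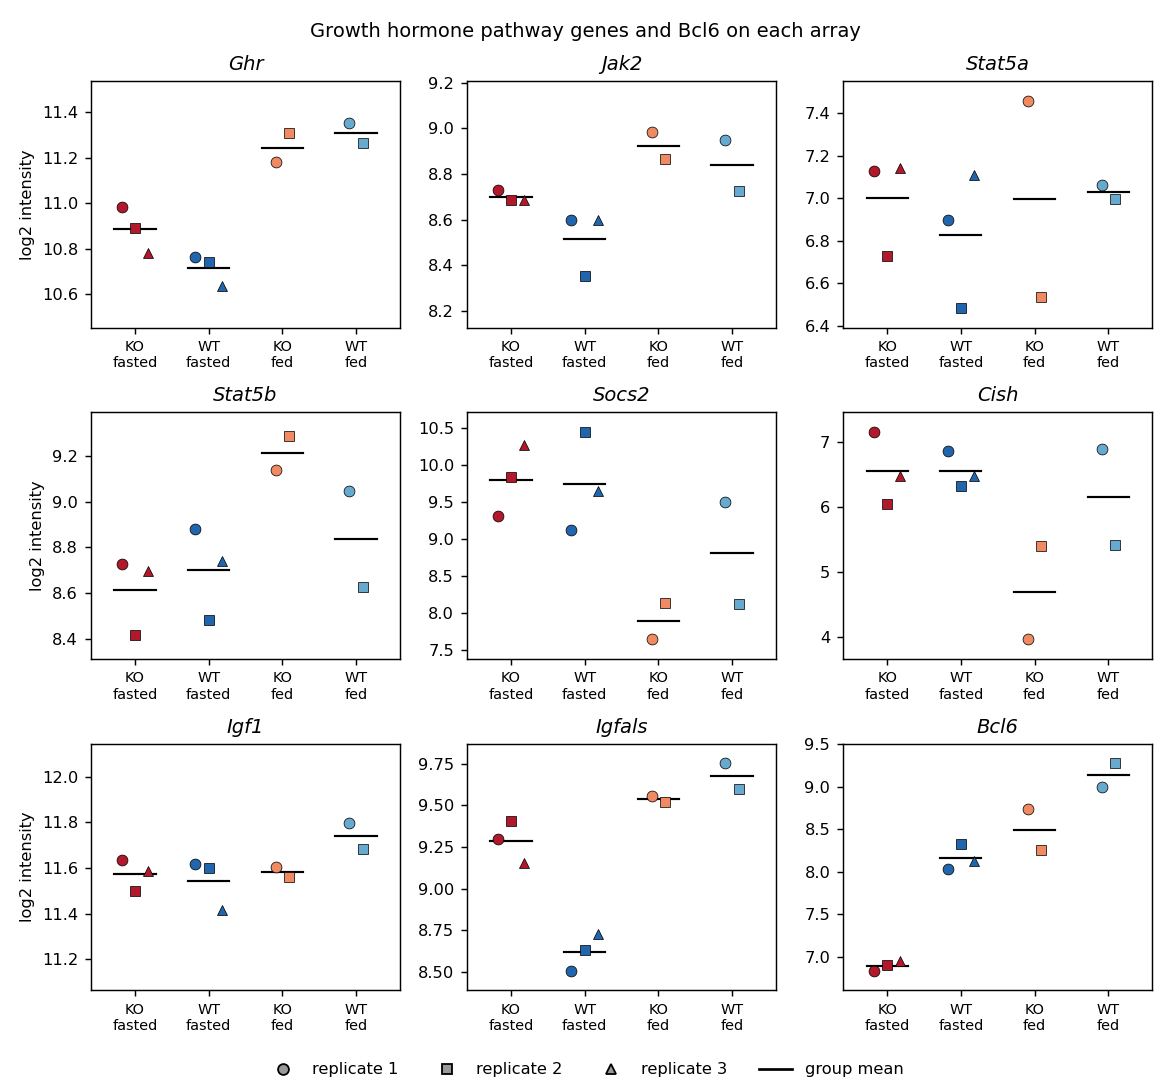
Log2 intensity of the 9 genes on each of the 10 arrays, by group (KO fasted, WT fasted, KO fed, WT fed); points are arrays, marker shapes are replicate numbers and bars are group means. Bcl6 in fasted KO lies at 6.84 to 6.94, below every other array, and Igfals in fasted WT lies at 8.51 to 8.73, below every other array.

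Ghr, the receptor, was at 10.98, 10.89 and 10.78 in fasted KO and at 10.76, 10.74 and 10.64 in fasted WT. Its fed values were 11.18 and 11.31 in KO and 11.35 and 11.26 in WT. Every fasted array lay below every fed array. The difference was called in WT, where Ghr fell by 0.59 on the log2 scale after the fast (SE 0.11, 1.51-fold lower, limma adjusted p = 0.00470). In KO the difference was -0.36 (SE 0.11, adjusted p = 0.115), which missed the threshold, and the interaction was 0.23 (SE 0.15, adjusted p = 0.412), so a different change in the 2 genotypes was not shown. Fasted KO and fasted WT, next to each other in the order of levels, did not differ beyond the threshold (0.17, SE 0.09, adjusted p = 0.267), nor did fed KO and fed WT (-0.06, SE 0.12, adjusted p = 0.939). In bulk tissue, fewer cells of a type and less RNA per cell cannot be told apart, for Ghr as for the genes below.

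Jak2, the kinase bound to the receptor, was at 8.73, 8.68 and 8.68 in fasted KO and at 8.60, 8.35 and 8.60 in fasted WT. Fed values were 8.98 and 8.87 in KO and 8.95 and 8.73 in WT. The fasted arrays lay below the fed ones within each genotype. Neither difference was called (-0.22, SE 0.12, adjusted p = 0.339 in KO and -0.32, SE 0.12, adjusted p = 0.0837 in WT).

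Stat5b, the STAT5 gene on which most growth hormone responses of mouse liver are known to depend, was at 8.73, 8.42 and 8.70 in fasted KO, against 9.14 and 9.29 in fed KO. Its WT values were 8.88, 8.48 and 8.74 when fasted and 9.05 and 8.63 when fed. KO arrays separated by feeding state and WT arrays overlapped. The change after the fast was -0.60 in KO (SE 0.17, adjusted p = 0.102) and -0.14 in WT (SE 0.17, adjusted p = 0.610), with an interaction of -0.47 (SE 0.24, adjusted p = 0.307). None of the 3 was called. Stat5a, its close relative and neighbour on the chromosome, ranged from 6.73 to 7.14 in fasted KO, 6.48 to 7.11 in fasted WT, 6.53 to 7.46 in fed KO and 6.99 to 7.06 in fed WT. Its groups overlapped in all 4 comparisons, with differences between -0.20 and 0.17. The 2 STAT5 genes are alike in sequence and their probe sets may share signal, which was not tested.

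Socs2, an inhibitor that growth hormone itself induces, was at 9.31, 9.83 and 10.27 in fasted KO and at 9.13, 10.45 and 9.65 in fasted WT. In fed liver it was at 7.65 and 8.13 in KO and at 9.51 and 8.12 in WT. Every fasted KO array lay above every fed KO array, while the fed WT arrays lay farther from each other than the means of fasted WT and fed WT did. The difference after the fast was 1.92 in KO (SE 0.47, 95% interval 0.87 to 2.96), 3.77-fold, and missed the threshold (limma adjusted p = 0.0700). In WT it was 0.93 (SE 0.47, adjusted p = 0.189) over all arrays, 1.62 without fed WT replicate 1 (adjusted p = 0.0734) and 0.24 without fed WT replicate 2 (adjusted p = 0.784). Between fasted KO and fasted WT the difference was 0.06, with a 95% interval of -0.87 to 1.00. A second Socs2 probe set, dimmer, ran in the same direction in KO, at 7.37, 7.80 and 8.41 when fasted and at 6.16 and 6.58 when fed.

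Cish, the other inhibitor that STAT5 induces, was at 7.16, 6.05 and 6.47 in fasted KO and at 6.87, 6.32 and 6.47 in fasted WT. Its fed values were 3.97 and 5.41 in KO and 6.90 and 5.42 in WT. Both fed KO arrays lay at or below the array median, which served as a floor. With that floor, the mean of fasted KO was at least 2.07-fold above that of fed KO, without allowance for the spread of the arrays. The fitted difference of 1.87 (SE 0.51, 95% interval of the fold 1.65 to 8.07) missed the threshold (adjusted p = 0.0952). In WT it was 0.40 (SE 0.51, adjusted p = 0.624). That value turned to -0.35 without fed WT replicate 2 and was 1.14 without fed WT replicate 1. In fed liver the fitted difference between KO and WT was -1.47 (SE 0.56, adjusted p = 0.477). It rests on fed WT replicate 1, at 6.90, and on fed KO replicate 1, at 3.97 and below the array median. Fed WT replicate 2 was level with fed KO replicate 2. The difference ranged from -2.21 to -0.73 over the alternatives. The fasted groups differed by 0.00 (SE 0.46). A second Cish probe set lay near the array median throughout, at 4.95 to 5.88. Fed WT replicate 1, the array with the low Sult2a1 and Sult2a2, was the highest fed array for both Socs2 and Cish.

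Igf1, the main hormone made under growth hormone control, was at 11.63, 11.50 and 11.59 in fasted KO and at 11.62, 11.60 and 11.42 in fasted WT. The fed arrays were at 11.60 and 11.56 in KO and at 11.80 and 11.68 in WT. It varied least of the 9 genes, with an SD of 0.10 over the 10 arrays. The difference after the fast was -0.01 in KO (SE 0.11, adjusted p = 0.978) and -0.20 in WT (SE 0.11, adjusted p = 0.220). KO minus WT was 0.03 when fasted (SE 0.09, adjusted p = 0.868) and -0.16 when fed (SE 0.12, adjusted p = 0.793).

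Igfals encodes the acid labile subunit, which holds IGF1 and its binding protein in the circulation. It was at 9.30, 9.41 and 9.15 in fasted KO and at 8.51, 8.63 and 8.73 in fasted WT. In fed liver it was at 9.56 and 9.52 in KO and at 9.76 and 9.60 in WT. The fasted WT arrays stood alone at the bottom, and the fasted KO arrays lay between them and the fed arrays. Igfals fell by 1.06 after the fast in WT (SE 0.12, 2.08-fold lower, limma adjusted p = 0.000647). In KO the difference was -0.26 (SE 0.12, adjusted p = 0.270). The interaction of 0.80 passed the threshold (SE 0.16, adjusted p = 0.0438), and kept it in 7 of 20 alternative settings. On leaving out single arrays it was kept without fasted KO replicate 3 (adjusted p = 0.0377) and lost without each of the others (0.0613 to 0.130).

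After the fast, Igfals was 0.66 higher in KO than in WT (SE 0.10, 1.58-fold, adjusted p = 0.00829), and in fed liver the genotypes did not differ beyond the threshold (-0.14, SE 0.13, adjusted p = 0.841). Without fasted KO replicates 1 and 2, the 2 arrays with low Arntl, the fasted difference was 0.53 (adjusted p = 0.122). The remaining fasted KO array, at 9.15, still lay above all fasted WT arrays. In that fit limma called 0 of 13698 genes between fasted KO and fasted WT, with 2547 at an unadjusted p under 0.05.

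Bcl6, the repressor, was at 6.84, 6.90 and 6.94 in fasted KO and at 8.03, 8.32 and 8.12 in fasted WT. The fed arrays were at 8.73 and 8.25 in KO and at 8.99 and 9.28 in WT. Fasted KO was the lowest group by a gap of more than 1 log2 unit, and fed WT the highest. After the fast Bcl6 was 1.60 lower in KO (SE 0.16, 3.03-fold), the value that placed it among these genes. In WT it fell by 0.98 (SE 0.16, 1.97-fold lower, limma adjusted p = 0.00324). The interaction was -0.62 (SE 0.23) and was not called (adjusted p = 0.169), so a stronger response in KO was not shown.

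Between the genotypes, Bcl6 was 1.27 lower in fasted KO than in fasted WT (SE 0.14, 2.40-fold lower, adjusted p = 0.00433). That comparison shares the fasted KO arrays with the one that placed Bcl6 among these genes, so the adjusted p there is not independent support. In fed liver it was 0.64 lower in KO than in WT, without overlap, but the difference was not called (SE 0.18, adjusted p = 0.302). Without fasted KO replicates 1 and 2, the fasted difference was -1.21 (adjusted p = 0.0756) and the change after the fast in KO -1.55. Fasted KO replicate 3 had Bcl6 at 6.94, next to 6.84 and 6.90 on the other fasted KO arrays.

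Some macrophage markers differed between the genotypes in fasted liver, beside the differences of Igfals and Bcl6. Of 11 such markers, 4 were higher in fasted KO than in fasted WT (Cd5l 0.65, Adgre1 0.54, Csf1r 0.38 and Cd68 0.36) and none lower. The other 7 were not called, and 11.1% of all genes were called in that comparison. The summed intensity of the 11 markers was 5095 to 5863 in fasted KO and 4240 to 4442 in fasted WT. In fed liver it was 4629 to 4994 in KO and 4468 to 5590 in WT. Fasted KO replicate 3, the array without low Arntl, was at 5373. The part of these markers in the results for Igfals and Bcl6 was not tested. In WT, 2 of the 11 fell after the fast (Adgre1 by 0.57, Csf1r by 0.35) and none rose, where 13.2% of all genes were called lower.

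**Figure D3:**
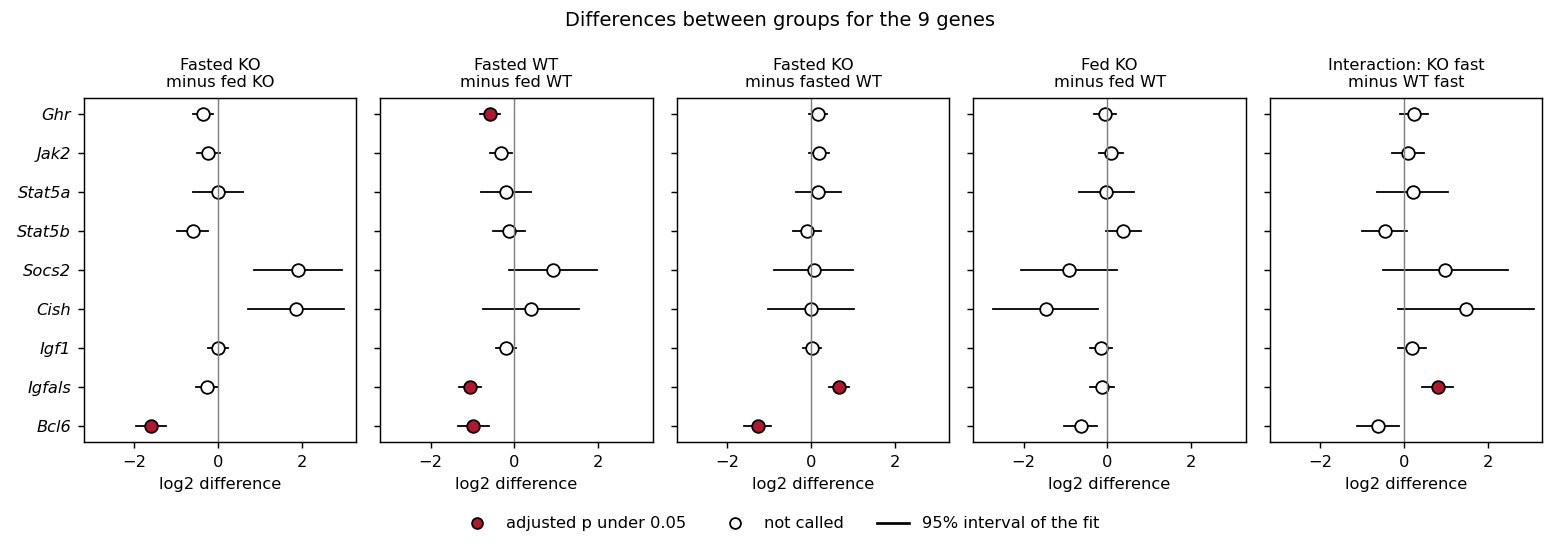
Log2 difference of each of the 9 genes in the 4 comparisons and in the interaction; the horizontal axis is the log2 difference, bars are 95% intervals of the limma fit and red marks called genes. Bcl6 lies at -1.60 for the fast in KO and -0.98 for the fast in WT, and Igfals at -0.26 and -1.06.

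Other genes of the pathway were taken from lists of known components. Their calls after the fast in KO, in fed liver and in the interaction rest on few arrays: without fed KO replicate 2, limma called 1 of all genes after the fast in KO (1591 at an unadjusted p under 0.05), 0 between fed KO and fed WT (987) and 2 in the interaction (2259). Over all genes tested, 1.68% were called after the fast in KO and 21.4% after the fast in WT. Between fasted KO and fasted WT 11.1% were, between fed KO and fed WT 0.0861%, and in the interaction 2.11%. The list counts here and below stand beside these shares and are not read as responses of a list. Among 23 tested genes of growth hormone signal transduction and its regulators, 3 were called higher and 3 lower after the fast in WT. Between the fasted groups, 2 were higher and 4 lower in KO, and the other comparisons had no call except 1 interaction. Nmi, a STAT-binding protein, fell by 1.17 after the fast in WT (SE 0.13, adjusted p = 0.000683), was 1.00 higher in fasted KO than in fasted WT (SE 0.12, adjusted p = 0.00433) and carried that interaction (1.21, SE 0.19, adjusted p = 0.0268). The JAK family kinase Tyk2 showed the same signs, -0.82 for the fast in WT and 0.52 for fasted KO against fasted WT. Irs2, an insulin receptor substrate, ran the other way, at 1.50 and -1.10, as did Socs7, a relative of the SOCS inhibitors, at 0.57 and -0.59. Socs3, the inhibitor induced by interleukin signals, was at 6.34, 5.92 and 6.04 in fasted KO and at 5.99, 6.14 and 6.28 in fasted WT, with overlapping groups. Without fed WT replicate 1, 1 gene of this list was called higher and 2 lower after the fast in WT, and the interaction of Nmi was not called (1.13, adjusted p = 0.0665).

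In the IGF system, 11 of 16 listed genes were tested. After the fast in WT 1 was called higher and 1 lower, where 21.4% of all genes were called. Igfbp1, a binding protein that insulin represses, was at 9.43, 8.84 and 10.23 in fasted KO and at 10.72, 11.36 and 10.49 in fasted WT. With food it was at 7.95 and 7.98 in KO and at 6.33 and 5.83 in WT. It differed by 1.53 after the fast in KO (SE 0.37, adjusted p = 0.0698) and rose by 4.78 in WT (SE 0.37, adjusted p = 0.000218), and its interaction was called (-3.25, SE 0.52, adjusted p = 0.0278). Igfbp5, another binding protein, was at or below the array median on all fasted WT arrays, at least 2.56-fold lower than fed WT (adjusted p = 0.00321), and fasted KO was at least 1.43-fold higher than fasted WT (adjusted p = 0.0200). The receptor gene Igf1r was 0.47 lower in fasted KO than in fasted WT (SE 0.12, adjusted p = 0.0353). No gene of the system was called after the fast in KO or in fed KO against fed WT.

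After the fast in KO, where 1.68% of all genes were called, 1 of 11 tested liver genes linked to STAT5 was higher and none lower. This was Onecut1, a hepatocyte transcription factor that growth hormone induces, at 9.93, 9.98 and 9.70 in fasted KO and at 8.05 and 8.72 in fed KO (1.49, SE 0.21, adjusted p = 0.0278). After the fast in WT none rose and 3 fell, where 13.2% of all genes were called lower. Egfr fell by 1.03, Foxa2 by 0.70 and Cyp7b1 by 1.18. Egfr, the epidermal growth factor receptor, was at 10.44 to 10.73 in fasted KO, 9.53 to 10.51 in fasted WT, 10.15 to 10.57 in fed KO and 11.07 to 11.12 in fed WT. None of the 3 was called without fed WT replicate 1, with adjusted p-values of 0.0964 for Egfr, 0.162 for Foxa2 and 0.138 for Cyp7b1. Pparg, a lipid-regulating nuclear receptor, was 0.78 higher in fasted KO than in fasted WT (SE 0.17, adjusted p = 0.0218).

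**Figure D4:**
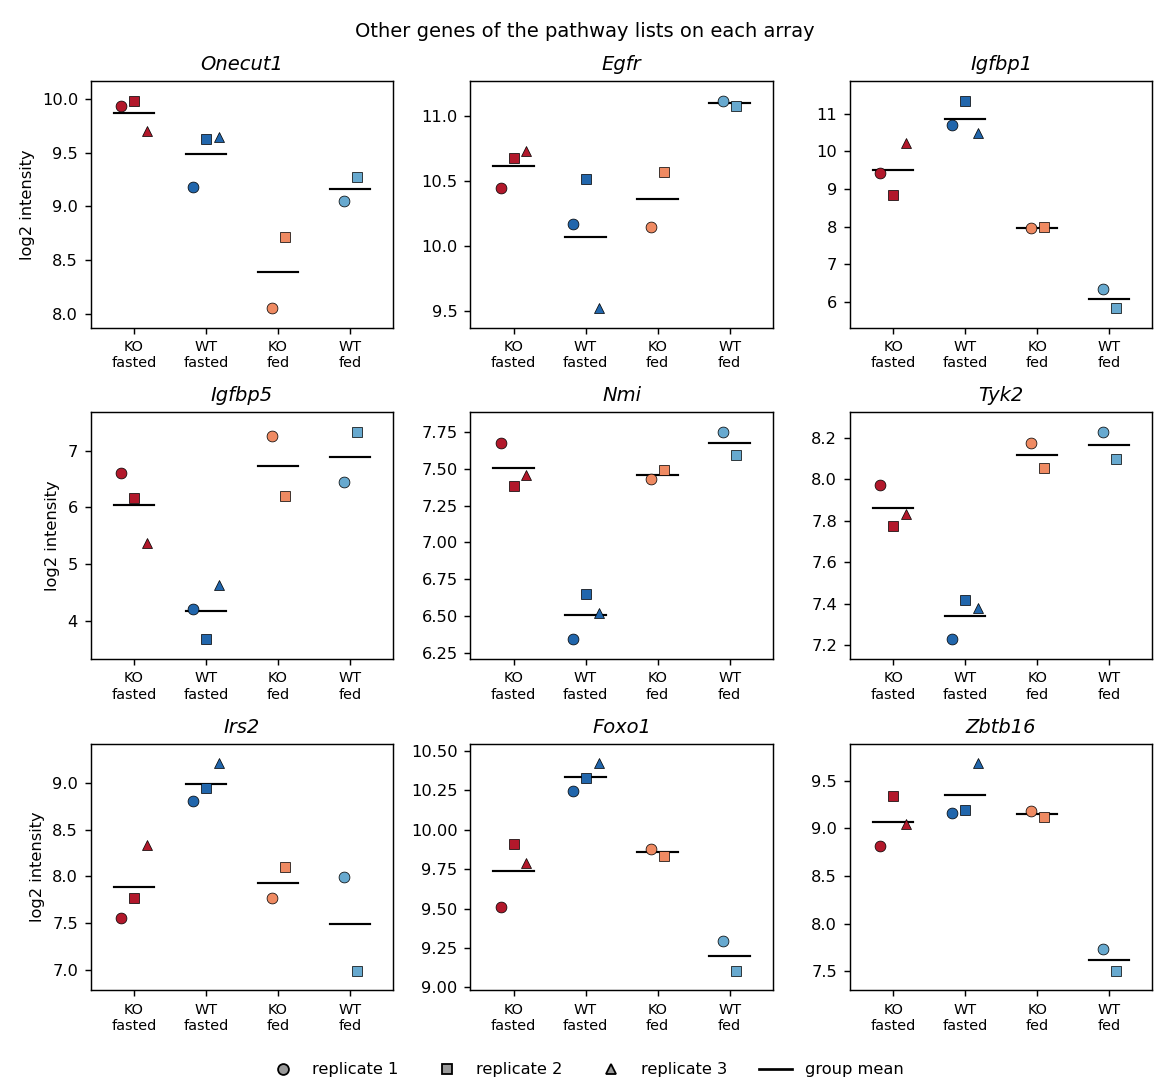
Log2 intensity of 9 other pathway genes on each array, by group (KO fasted, WT fasted, KO fed, WT fed), with points for arrays, marker shapes for replicate numbers and bars for group means. Igfbp1 reaches 11.36 in fasted WT and is lowest, at 5.83, in fed WT, and the fasted WT arrays of Nmi and Tyk2 lie below all others.

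Genes with a sex bias that depends on growth hormone were read as a further output of the pathway. Of 17 tested male-biased genes, 1 fell after the fast in KO (Cyp2u1, -2.01, SE 0.41, adjusted p = 0.0483), where 1.68% of all genes were called. In WT 1 rose and 4 fell after the fast, where 21.4% of all genes were called and 13.2% were called lower. Those 4 were Hsd3b5 (-4.64), Cyp2u1 (-1.71), Gna14 (at least 2.72-fold lower) and Cyp7b1. Hsd3b5, a steroid dehydrogenase, was at 6.55, 5.93 and 5.17 in fasted KO and at 5.51, 6.90 and 4.35 in fasted WT. In fed liver it was at 6.25 and 8.04 in KO and at 10.48 and 9.99 in WT, the only group above 9. The fed difference of -3.09 between KO and WT (SE 0.79, adjusted p = 0.271) was not called. Without fed WT replicate 1, none of the list rose and 1 fell after the fast in WT (Hsd3b5, -4.40, adjusted p = 0.0244). Gna14, a G protein subunit, was at least 2.33-fold higher in fasted KO than in fasted WT.

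Of 23 tested female-biased genes, 1 rose after the fast in KO, where 1.68% of all genes were called. In WT 6 rose and 2 fell after the fast, where 21.4% of all genes were called. Cyp2b10, a cytochrome induced through the receptor CAR, rose in both genotypes, by 1.27 in KO (SE 0.11, adjusted p = 0.00660) and by 2.55 in WT (SE 0.11, adjusted p = 9.95e-06). It was 0.89 higher in fed KO than in fed WT (SE 0.12, adjusted p = 0.0398) and 0.39 lower in fasted KO than in fasted WT, and the interaction was called (-1.28, SE 0.15, adjusted p = 0.0188). The acyl-CoA thioesterase Acot3 rose by 2.31 after the fast in WT and also had a called interaction (-1.86). Prom1 was at least 2.33-fold lower in fasted WT than in fed WT and at least 1.38-fold higher in fasted KO than in fasted WT, where Atp6v0d2, a proton pump subunit, was 1.53 higher. Cyp3a44 rose by 1.69 after the fast in WT, which became 0.84 without fed WT replicate 1 (adjusted p = 0.249). Without that array 3 genes of this list rose and 2 fell after the fast in WT, and Cyp2b10 in fed KO against fed WT was not called (0.88, adjusted p = 0.0900). Genes of the Cyp2b, Cyp3a, Acot, Sult2a and Hsd3b families have close relatives whose signal their probe sets may share. The lowest arrays of this class were single ones: Cyp3a16 was at 5.73 in fed WT replicate 1 and at 5.73 in fed KO replicate 2, against 8.06 or more elsewhere.

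**Figure D5:**
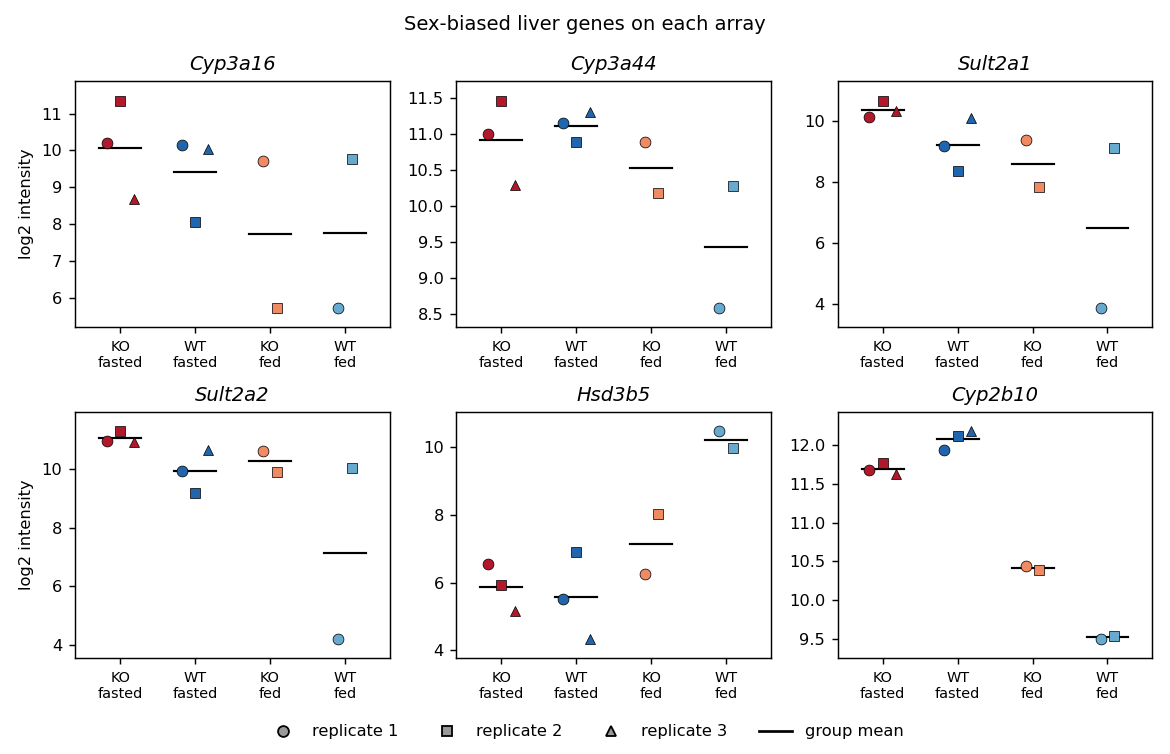
Log2 intensity of 6 liver genes with a sex bias on each array, by group (KO fasted, WT fasted, KO fed, WT fed), with points for arrays, marker shapes for replicate numbers and bars for group means. Fed WT replicate 1 lies at 3.88 for Sult2a1 and 4.22 for Sult2a2, and Hsd3b5 is at 9.99 and 10.48 in fed WT only.

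Of 14 tested genes of BCL6 partners and related repressors, 3 rose and 1 fell after the fast in WT. Over all genes, 21.4% were called there. Zbtb16, a zinc finger repressor of the same family, rose by 1.72 after the fast in WT (SE 0.19, adjusted p = 0.000683). It was also 1.53 higher in fed KO than in fed WT (SE 0.21, adjusted p = 0.0398), at 9.18 and 9.12 against 7.73 and 7.51. Foxo1, a transcription factor that insulin inactivates, rose by 1.13 after the fast in WT (SE 0.13, adjusted p = 0.000779) and was 0.60 lower in fasted KO than in fasted WT (SE 0.12, adjusted p = 0.0170). Both had a called interaction, -1.81 for Zbtb16 and -1.25 for Foxo1. Tbl1xr1, a corepressor subunit, rose by 1.01 after the fast in WT and Sin3a, a corepressor scaffold, fell by 0.45. The 1 gene called after the fast in KO was Tbl1x, a corepressor subunit, which fell by 0.71 (SE 0.14, adjusted p = 0.0473). Without fed WT replicate 1, 3 genes of this list rose and none fell after the fast in WT, and Zbtb16 in fed KO against fed WT was not called (1.65, adjusted p = 0.0713).

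Clock genes were listed because the fasted KO arrays differ in them. Of 16 tested, 3 rose and 3 fell after the fast in WT, where 21.4% of all genes were called. The largest called differences were Npas2 at 3.70, Cry1 at 2.86, Nr1d1 at -3.12 and Dbp at -3.11. No clock gene was called after the fast in KO. In fasted KO 1 was higher and 2 lower than in fasted WT (Nr1d1 1.48, Cry1 -2.17, Clock -1.16), where 11.1% of all genes were called. Acute phase genes respond to interleukin signals through STAT3. After the fast in WT 4 of 18 were called higher (Orm3 2.06, Lcn2 1.80, Hp 0.66 and Lbp 0.61), where 21.4% of all genes were called. None of the acute phase genes was called in any other comparison. Without fed WT replicate 1, 2 clock genes rose and 1 fell after the fast in WT, and 2 acute phase genes rose. All calls between fasted KO and fasted WT in these lists were lost when fasted KO replicates 1 and 2 were left out.

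Profiles most like those of the 9 genes were found by the root mean square difference of log2 values over the 10 arrays, after each gene was centred on its own mean. For Bcl6 the nearest genes were Hmgcs1, Mpp4 and Exph5, at 0.47 each, where Bcl6 itself had an SD of 0.88. Igfals had closer profiles, Mettl4 at 0.087, Trim68 at 0.094 and Etaa1 at 0.10, for an SD of 0.44. Ghr was followed by Emc1, Dennd10 and Sap130 at 0.062 to 0.065, for an SD of 0.26. For Socs2 the nearest were Bhlhb9 at 0.46, Myc at 0.49 and Gnl3 at 0.55. For Cish they were Rpl30 at 0.48, Ccdc34 at 0.56 and Myc at 0.57. Socs2 and Cish each had an SD of 0.95. Rpl30, at 3.09 to 5.61, and Ccdc34, at 4.52 to 5.89, lay near or below the array median, so their likeness rests on dim values. Myc was the gene named for both inhibitors, and it was at 7.54, 7.01 and 7.36 in fasted KO, 6.92, 7.19 and 7.36 in fasted WT, 5.18 and 6.05 in fed KO, and 6.13 and 5.46 in fed WT. The fasted arrays of Myc all lay above the fed ones. Stat5b was followed by Cecr2 at 0.10, Stamos at 0.12 and Mroh1 at 0.13, Stat5a by Pmp22 and Icam1 at 0.13 and Fndc10 at 0.15, Jak2 by Sirpa at 0.046, Eefsec at 0.046 and Ctsc at 0.051, and Igf1 by Bccip at 0.044, Mdh1 at 0.052 and Ndufc1 at 0.056.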

How the data were processed

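The table the authors deposited gives every probe set a linear, normalized intensity on each array. RMA and Affymetrix Expression Console are named per the submitters' processing notes, without versions; for the genome build, the sources used here give none. Each array holds 228 to 489 values under 0.1, so how they were summarised is not settled. The deposited values were only turned into log2, and feeding was read from the sample titles. Of 41345 probe sets, the platform table names 23521 by 1 symbol, 1814 by several and 16010 not at all. Probe sets above the array median (50th percentile) on at least 2 arrays were kept (14617, for 13942 genes), and the brightest stood for its gene, also where 519 genes had more than 1. The array median also served as the floor for bounds. Bounds given as at least a fold compare group means with values under the floor raised to it, and carry no allowance for the spread.

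With limma 3.58.1 (R 4.3.3), 1 model with a mean for each of the 4 groups was fitted over the 10 arrays, with Benjamini-Hochberg adjustment over all genes tested and calls at an adjusted p under 0.05. The groups of 2 or 3 arrays limit the precision. On simulated data for fasted KO against fed KO (13942 genes), 72 of 100 genes changed 2-fold and 96 of 100 changed 4-fold were recovered, with 7 false calls. The simulated noise was normal, independent between genes and equal in spread across groups, so these rates may not hold for the real arrays.

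The 9 genes and all lists were chosen with earlier results of these data known. Besides the 9 genes, Pml, Arntl and Dbp were named as checks, up to 4 called genes of each list and comparison by the largest difference, and the 3 nearest profiles of each of the 9 genes. Socs3, Sult2a1, Sult2a2 and Cyp3a16, and the values of Myc, were chosen after their values were seen. Same-numbered arrays of the groups did not deviate together (r of 0.01 to 0.09 between fasted KO and fasted WT, 0.08 and 0.09 between fasted WT and fed WT, -0.05 and -0.03 between fasted KO and fed KO, and -0.17 between fed KO and fed WT), so no pairing was modelled. Alternatives were array centring, quantile normalization, no filter and a filter at the 70th percentile, log2(value + 1), the mean of all probe sets, trend and robust moderation, array weights, the replicate block, the groups of a comparison alone, and the omission of each array and of fasted KO replicates 1 and 2. Markers of sinusoidal endothelium (10 tested), stellate cells (9), cholangiocytes (4), lymphocytes (6), adipocytes (4) and pancreas (2) were read as well. Between fasted KO and fasted WT the endothelial Stab1 was lower (-0.44) and no other gene of these lists was called. After the fast in WT, Pecam1 (0.45) and Hand2 (0.63) rose, and Lrat (-1.04) and Col3a1 (-0.67) fell. None of 8 neutrophil markers passed the filter, and 5 red blood cell markers were not analysed here. Xist lay at 11.57 to 11.88 on all arrays, and 3 Y-linked genes lay below the array median.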

Additional observations from a re-analysis of the deposited data

Results flagged for a closer look

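Igfals was singled out because its interaction, a test of whether the fast acted differently in the 2 genotypes, was called. That call was kept in 7 of 20 alternative settings. Among single omissions it was kept only without fasted KO replicate 3. Clock genes also differed between the groups, and their part in the interaction was not tested. The interaction was 0.80 on the log2 scale (SE 0.16, limma adjusted p = 0.0438), from a change of -0.26 in KO and -1.06 in WT. All 3 fasted KO arrays lay above all 3 fasted WT arrays. Across the omissions of single arrays the adjusted p was 0.0377 to 0.130, and the size stayed between 0.67 and 0.88 over all alternatives. Groups of 2 or 3 arrays are too small for a test of single outlying arrays.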

How the results depend on the processing

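The falls of Bcl6, Ghr and Igfals after the fast in WT were called in all 21 alternatives. Bcl6 after the fast in KO, the value that placed it among the 9 genes and so a description only, ran from -1.84 to -1.36. Between fasted KO and fasted WT, Bcl6 and Igfals kept their calls in 20 of 21 each. The exception, the omission of fasted KO replicates 1 and 2, left 1 array in that group (Bcl6 -1.21, Igfals 0.53). The calls of Bcl6 there use the fasted KO arrays that placed it among the 9 genes. No called value changed sign. Of 38 pairs of gene and comparison that were not called, 13 changed sign in some alternative and 2 were called in 1. After the fast in KO the 9 genes had 2 calls with the filter at the 70th percentile (Socs2, adjusted p = 0.0483) and 2 with trend and robust moderation (Ghr, adjusted p = 0.0346). They had 0 with the replicate block (Bcl6 -1.60; by limma 0 of all genes, 2310 at an unadjusted p under 0.05). The interaction of Igfals was lost, leaving 0 calls, with array centring (0.71, adjusted p = 0.0793), no filter (0.80, 0.104), the replicate block (0.80, 0.0819), the omission of fasted KO replicates 1 and 2 (0.67, 0.134), and 9 of 10 single omissions. Single omissions left 1 to 1 calls for the fast in KO, 3 to 3 for the fast in WT, 2 to 2 for fasted KO against fasted WT, 0 to 0 for fed KO against fed WT and 0 to 1 for the interaction. The causes were not tested. The block moved no other call, and the replicate numbers are only names. Centring moved the median of all genes after the fast in WT by 0.10, and Bcl6 there was -0.87, Ghr -0.49 and Igfals -0.95. Among all genes, calls after the fast in KO numbered 234 in the fit reported, 504 with trend and robust moderation, 452 at the stricter filter, 10 with no filter, 16 with the KO groups alone and 1 to 170 over single omissions. For fasted KO against fasted WT they were 1549, 654 with no filter, 850 with the fasted groups alone, 437 to 1501 over single omissions. For the interaction they were 294, 520 with trend and robust moderation, 4 with no filter, 501 at the stricter filter, 137 with the block and 2 to 367 over single omissions. For the fed genotypes they were 12, 4 with no filter, 24 under trend and robust moderation, 0 with the block or the fed groups alone and 0 to 17 over single omissions. The fast in WT gave 2990, and 1328 to 3075 over single omissions (1328 without fed WT replicate 1, 1936 without fed WT replicate 2).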
